A study of Mus musculus with 20 samples.

Results

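The 10 axonal libraries of cultured mouse motoneurons were grouped by their mitochondrial share, the percentage of the summed FPKM (fragments per kilobase of transcript, relative to all mapped fragments) held by the 37 genes of chromosome MT. A share of 25% or more placed 5 axonal libraries in the high class and the other 5 in the low class, out of 20 libraries in the series. The high class held control 4 and knockdown 2, 4, 5 and 6, and the low class held controls 1, 2 and 3 and knockdown 1 and 3, so both classes held both conditions. All libraries came from motoneurons of CD-1 mouse embryos, enriched by panning with a p75 antibody and grown for 7 days in vitro in microfluidic chambers with a somatodendritic and an axonal side. The 6 knockdown libraries of each compartment carried a lentiviral shRNA against Tdp-43, and the 4 control libraries carried the lentivirus with the empty vector. RNA of the axonal and of the somatodendritic side was reverse transcribed and amplified by PCR as a whole transcriptome before sequencing. No label names the culture behind a library, so a shared replicate number of an axonal and a somatodendritic library is only taken here to mark 1 culture, and p-values measure the spread between libraries, which may be partly technical.

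Axons hold mitochondria that are carried out of the soma along microtubules by kinesin motors. Each mitochondrion has its own circular genome, which is transcribed into polycistronic RNAs that yield the ribosomal RNAs, the transfer RNAs and the mRNAs for core subunits of the respiratory chain. All other mitochondrial proteins, among them most subunits of the same respiratory complexes, are made from nuclear genes, some of whose mRNAs are found in axons. In bulk axonal RNA a high mitochondrial share can come with more mitochondria per axon, more RNA per mitochondrion or less of all other RNA, and these cannot be told apart here. Likewise, fewer cells of a type and less RNA per cell cannot be told apart.

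The share was 33.0% in control 4, 41.6% in knockdown 2, 38.5% in knockdown 4, 47.7% in knockdown 5 and 41.1% in knockdown 6. In the low class it was 12.1%, 8.92% and 13.1% in controls 1 to 3, and 12.8% and 8.88% in knockdown 1 and 3. The libraries next to the limit were control 3 at 13.1% and control 4 at 33.0%, so limits of 20% and 30% give the same classes. Since the share chose the classes, it is given as a description. The 10 somatodendritic libraries lay between 10.5% and 15%, next to the low class. Between conditions the share was 31.8% ± 16.5 (SD, n = 6) in axonal knockdown and 16.8% ± 11.0 (SD, n = 4) in axonal control libraries, a difference of 15 percentage points that was within the spread of the libraries (two-sided exact permutation test, p = 0.133, smallest possible p = 0.00476). Leaving out the 2 mitochondrial ribosomal RNA genes gave a difference of 6.52 points (exact permutation test, p = 0.148).

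**Figure D1:**
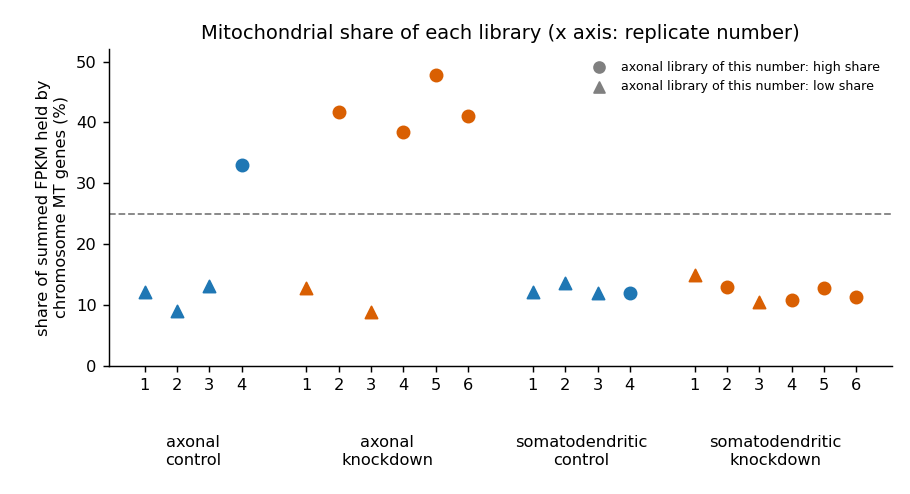
Percentage of summed FPKM held by genes of chromosome MT (y axis) for each of the 20 libraries, by replicate number (x axis), with the 25% limit as a dashed line. Each point is 1 library; blue marks control and orange marks knockdown, circles mark numbers whose axonal library is in the high class and triangles those in the low class. The 5 axonal circles lie between 33.0% and 47.7%, and all somatodendritic points lie below 15%.

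The mitochondrially encoded genes, which the rule used, were mostly high together. The small ribosomal RNA mt-Rnr1 (GRCm38, chromosome MT, 70 to 1024) averaged 128583 ± 20033 FPKM (SD, n = 5) in the high and 28292 ± 6174 (SD, n = 5) in the low class, a ratio of 4.54. The large ribosomal RNA mt-Rnr2 had a ratio of 4.21. Among the mRNAs the ratio was 4.52 for mt-Co1, the catalytic subunit of complex IV, 5.47 for mt-Nd2 and 5.19 for mt-Nd5, subunits of complex I, and 4.59 for mt-Cytb of complex III. mt-Nd6, the mRNA encoded on the opposite strand, had a ratio of 2.83. Of the 13 mRNAs 11 did not overlap between the classes, and the exceptions were mt-Atp8 with a ratio of 1.5 and mt-Nd4l with 1.89. Ribosomal RNA made up between 69.7% and 75.7% of MT FPKM over all 10 libraries. The mitochondrial transfer RNAs went with condition rather than with the share: 15, 9, 12 and 15 of the 22 were above 0 in controls 1 to 4, and 0 to 2 in the knockdown libraries of either class.

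For the nuclear genes, FPKM were scaled by a median-of-ratios factor over nuclear genes, so that MT RNA had no part in the scaling, and compared as log2(scaled FPKM + 1) with limma in a model with condition and share class. Of 13926 nuclear genes tested, 8 passed an adjusted p of 0.05 (limma, Benjamini-Hochberg), which is 0.0574% of them, and all 8 rose with the share. They were Kif1a, Apc and Ttc3, the signal recognition particle RNA genes Rn7s1, Rn7s2 and Gm22179, and the pseudogenes Gm13340 and Gm13339, which resemble MT genes. At an unadjusted p below 0.05, 258 genes (1.85%) were higher and 562 (4.04%) were lower in the high class. Without regard to the test, 97 genes (0.697%) were higher and 160 (1.15%) were lower in every high-share library than in every low-share library. The median difference over all genes tested was -0.23 on the log2 scale, and values below are to be read against it. The 8 calls depended on single libraries. Leaving out 1 of the 10 at a time gave 0 to 7 calls, of which 0 to 4 were among the 8. Of the 8, 4 were called again without control 4 and 2 without knockdown 4, and 0 without any other single library, knockdown 1 included, whose 2 calls were Rny1 and Rny3. They depended on the processing too, since 0 calls were left with relative depth as a covariate, with upper quartile scaling, with a pseudocount of 0.1 or with no filter on low values. Of the genes at an unadjusted p below 0.05, 31.5% were higher, against 9.01% with upper quartile scaling and 50.5% with relative depth as a covariate.

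Gm13340 and Gm13339 are nuclear copies of mitochondrial genes on chromosome 2 (GRCm38, chr2:22588103-22589647 and chr2:22590024-22590533). Scaled FPKM of Gm13340 were 121, 84.9 and 135 in controls 1 to 3 and 55.0 and 32.4 in knockdown 1 and 3, against 292 in control 4 and 357, 213, 257 and 346 in knockdown 2, 4, 5 and 6. Every high-share library was above every low-share one, and the gene rose by 2.25 ± 0.35 on the log2 scale (SE, limma, adjusted p = 0.0361). Gm13339 rose by 2.91 ± 0.47 (limma, adjusted p = 0.0419). Aligned to the MT genes, Gm13340 was identical to mt-Co1 at 1508 of 1545 bases (97.6%), and Gm13339 was 96.7% identical to mt-Nd2 over 510 bases. A stretch of Gm13340 (bases 421 to 540) and the same stretch of mt-Co1 (GENCODE M21 transcripts on GRCm38, 5′ to 3′) are shown because they show how few bases tell a fragment of one from a fragment of the other, with the 5 bases that differ in capitals. Among the windows of this length that were compared, it is the one with the most differences.
Gm13340: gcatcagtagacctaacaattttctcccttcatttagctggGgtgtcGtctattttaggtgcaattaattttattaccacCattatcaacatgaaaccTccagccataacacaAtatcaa
mt-Co1: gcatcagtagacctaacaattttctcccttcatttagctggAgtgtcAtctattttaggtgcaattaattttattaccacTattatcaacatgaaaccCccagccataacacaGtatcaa
How the authors' counting divided fragments between such copies is not given in the sources used here, so the levels of Gm13340 and Gm13339 are uncertain. In all, 10 genes outside chromosome MT shared sequence with it in this way and 8 of them were tested. Another copy, Gm10222, was identical to mt-Nd4l over 294 bases and gave 2.26 with overlapping classes (limma, adjusted p = 0.114).

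The 7SL RNA is the RNA core of the signal recognition particle, which brings ribosomes that make secreted or membrane proteins to the endoplasmic reticulum. The 3 annotated 7SL genes Rn7s1 (chr12:69159295-69159594), Rn7s2 (chr12:69361182-69361481) and Gm22179 (chr6:69516339-69516629, listed as Rn7s6 in current gene names) all rose with the share. Rn7s1 and Rn7s2 were identical over all 300 bases, and Gm22179 matched Rn7s1 at 197 of the first 200 bases (98.5%), so their separate levels depend on how fragments were divided among them and they are best read as 1 RNA. The sequences of the Y RNAs Rny1 and Rny3, described below, are given from GENCODE M21 (GRCm38), 5′ to 3′, since a short RNA at a high level is best recognised by its sequence. The 4 capitals of each mark the run of T at its 3′ end that ends transcription by RNA polymerase III.
Rny1: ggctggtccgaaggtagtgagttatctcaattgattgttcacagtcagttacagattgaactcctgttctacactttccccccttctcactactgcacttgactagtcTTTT
Rny3: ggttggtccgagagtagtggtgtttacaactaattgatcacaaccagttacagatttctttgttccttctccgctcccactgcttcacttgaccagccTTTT

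Scaled FPKM of Rn7s1 were 15441, 11487 and 14422 in controls 1 to 3 and 4556 and 2350 in knockdown 1 and 3. In the high class they were 25512 in control 4 and 16626, 14775, 18182 and 13275 in knockdown 2, 4, 5 and 6. The classes overlapped over all libraries but not within a condition, because the low-share knockdown libraries lay far below the low-share controls. Beside condition, Rn7s1 rose by 1.77 ± 0.26 with the share (limma, adjusted p = 0.0361), and beside the share it fell by 1.52 with knockdown under the scaling used here (limma, adjusted p = 0.025). Control 4 was 0.90 above controls 1 to 3, and the high-share knockdown libraries were 2.25 above the low-share ones. Rn7s2 rose by 1.79 ± 0.25 and Gm22179 by 1.76 ± 0.27 (limma, adjusted p = 0.0361 for both). These sizes depended on the scaling and the model: quantile normalization gave 0.79 for Rn7s1 (limma, adjusted p = 0.0282) and 0.41 for Rn7s2 (limma, adjusted p = 0.765), and a fit with no condition term gave 1.16 for Rn7s1 (limma, adjusted p = 0.437). Gm22179, at 725 to 4090 in the low and 4123 to 6900 in the high class, did not overlap. The 3 genes together held 1.66% to 5.15% of nuclear FPKM in the low-share and 8.06% to 11.4% in the high-share libraries.

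Y RNAs are short noncoding RNAs bound by the Ro60 protein. Rny1 (chr6:47788069-47788180) had scaled FPKM of 1437, 975 and 726 in controls 1 to 3 and 749 and 105 in knockdown 1 and 3, against 4604 in control 4 and 2249, 1082, 2035 and 2045 in knockdown 2, 4, 5 and 6. Knockdown 4 lay below control 1, so the classes overlapped in that pair, and the difference of 2.49 ± 0.46 missed the threshold (limma, adjusted p = 0.0901). Rny3 (chr6:47781624-47781725) stood at 825, 777, 903, 3034 and 375 in the low-share libraries in the same order and at 8384, 6387, 2375, 6946 and 6360 in the high-share ones. Knockdown 1 of the low class exceeded knockdown 4 of the high class, and the difference was 2.64 ± 0.50 (limma, adjusted p = 0.0952). Other RNA polymerase III transcripts differed less: 0.93 for Rpph1, the RNA of ribonuclease P (unadjusted p = 0.00638), 0.59 for Rn7sk, which holds the elongation factor P-TEFb inactive (unadjusted p = 0.0124), and 0.49 for Rmrp, the RNA of ribonuclease MRP (unadjusted p = 0.158). Small noncoding RNA as a whole held 16.6% ± 1.84 (SD, n = 5) of nuclear FPKM in the high and 8.85% ± 2.51 (SD, n = 5) in the low class (exact permutation test over libraries, two-sided, p = 0.00794, which is the smallest it can give, and 0.0397 adjusted over 5 library measures). Without the 3 7SL genes the small noncoding share was 6.04% to 8.37% in the high and 3.49% to 6.76% in the low class, and the classes overlapped.

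Microtubule-based transport moves mitochondria, vesicles and mRNA particles along axons. Kif1a (GRCm38, 1:93015456-93101865), a kinesin-3 motor that carries synaptic vesicle precursors and dense core vesicles, had scaled FPKM of 178, 105 and 172 in controls 1 to 3 and 97.4 and 102 in knockdown 1 and 3. In the high class they were 440 in control 4 and 463, 308, 671 and 617 in knockdown 2, 4, 5 and 6. The classes did not overlap, and Kif1a rose by 2.03 ± 0.32 (limma, adjusted p = 0.0361), by 1.57 within controls and by 2.29 within knockdown libraries. Kif5c, a kinesin-1 heavy chain and a carrier of axonal mitochondria, was at 67.4 to 139 in the low and 192 to 336 in the high class, a difference of 1.34 ± 0.26 that missed the threshold (limma, adjusted p = 0.111). Kif1b, a kinesin-3 motor with an isoform that carries mitochondria, was at 131 to 303 in the low and 408 to 589 in the high class (difference 1.02 ± 0.27, unadjusted p = 0.00179). The other kinesin-1 heavy chains differed by 0.77 for Kif5a (unadjusted p = 0.09) and 0.19 for Kif5b (unadjusted p = 0.631), with overlapping classes. Of the 54 microtubule motor genes tested, these 3 non-overlapping kinesins were the only members with an unadjusted p below 0.05, all higher (1.85% of all genes tested were), and the median of the list was -0.31 against -0.23 for all genes. The summed level of the list was 1601 to 2047 scaled FPKM in the low and 2383 to 2934 in the high class. Kif1a, Kif5c and Kif1b are part of this sum, and by the values above the rest of the list overlaps between the classes.

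Apc (18:34220924-34322189) encodes a protein that binds microtubule plus ends and mRNAs in cell protrusions and that takes part in the breakdown of β-catenin. Scaled FPKM of Apc were 45.6, 44.3 and 75.3 in controls 1 to 3 and 38.9 and 45.3 in knockdown 1 and 3, against 284 in control 4 and 161, 162, 367 and 259 in knockdown 2, 4, 5 and 6. The lowest high-share library was above the highest low-share library in both conditions. Apc rose by 2.39 ± 0.35 (limma, adjusted p = 0.0361), by 2.39 within controls and by 2.38 within knockdown libraries. Ttc3 (16:94370618-94469222), an E3 ubiquitin ligase, was at 56.4, 73.2, 59.1, 96.9 and 106 in the low-share and at 192, 334, 297, 280 and 415 in the high-share libraries. It rose by 1.66 ± 0.27 (limma, adjusted p = 0.0446) without overlap. With any 1 library left out, Apc kept a difference of 2.25 to 2.48, Kif1a of 1.93 to 2.29 and Ttc3 of 1.59 to 1.72. Apc and Kif1a then stayed below an adjusted p of 0.05 only without knockdown 4 (limma, adjusted p = 0.0344 for each), and Ttc3 in no such fit.

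**Figure D2:**
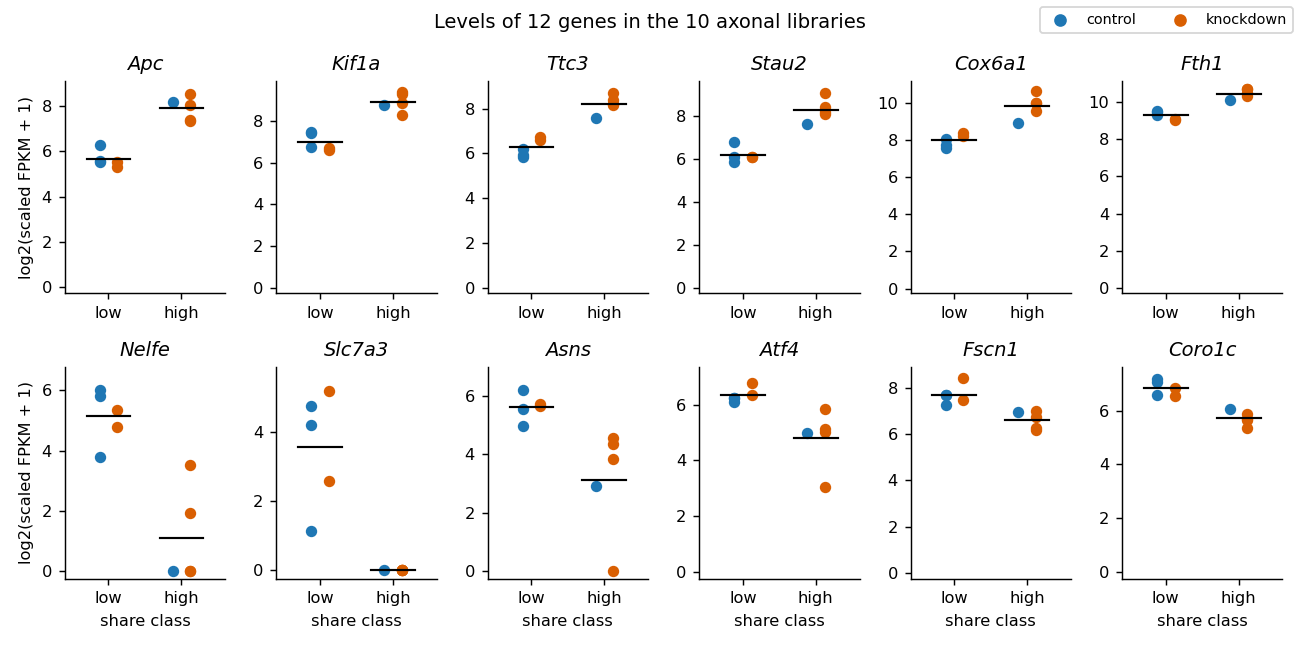
Level of 12 genes as log2(scaled FPKM + 1) (y axis) in the 10 axonal libraries by share class (x axis). Each point is 1 library, blue for control and orange for knockdown, and lines are the means of the 5 libraries of a class. In none of the 12 panels do the classes overlap, and Slc7a3 is listed at 0 in all 5 high-share libraries.

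Several protein-coding genes came near the threshold without overlap. Stau2, a double-stranded RNA-binding protein of neuronal RNA granules, was at 109, 57.6 and 66.8 in controls 1 to 3 and 67.8 and 67.9 in knockdown 1 and 3, against 199 in control 4 and 288, 338, 538 and 270 in knockdown 2, 4, 5 and 6 (difference 2.0 ± 0.34, limma, adjusted p = 0.0527). Ppfia3, the presynaptic scaffold liprin-α3, was at 13.6 to 27.8 in the low and 65.4 to 198 in the high class (2.19 ± 0.41, limma, adjusted p = 0.0952). Fth1, the ferritin heavy chain that stores iron, was at 514 to 733 in the low and 1077 to 1622 in the high class (1.19 ± 0.22, limma, adjusted p = 0.0952). Ankrd12, an ankyrin repeat protein, stood at 9.15 to 19.9 and 51.3 to 63.5 (2.03 ± 0.39, limma, adjusted p = 0.0952), and Rapgef4, a cAMP-activated exchange factor for Rap, at 5.09 to 19.2 and 42.1 to 167 (2.45 ± 0.50, limma, adjusted p = 0.122). In each of them control 4 lay above controls 1 to 3 and the 4 high-share knockdown libraries above the other 2, as the absence of overlap requires. The plot of differences within conditions shows them side by side.

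Complex IV, cytochrome c oxidase, is built from 3 MT-encoded core subunits and from nuclear-encoded subunits, and it is the respiratory complex whose nuclear genes were placed highest. Of its 13 nuclear genes tested, 4 had an unadjusted p below 0.05 and were higher (1.85% of all genes tested were), none was lower, and none passed the adjusted threshold. Cox6a1 was at 264, 192 and 213 in controls 1 to 3 and 295 and 331 in knockdown 1 and 3, against 474 in control 4 and 1009, 757, 1589 and 1000 in knockdown 2, 4, 5 and 6. The classes did not overlap (difference 1.51 ± 0.27, limma, adjusted p = 0.0823). Cox6c was at 37.7 to 69.1 in the low and 73.6 to 193 in the high class (1.69 ± 0.37, limma, adjusted p = 0.224), and Cox8a at 253 to 386 and 394 to 1025 (0.83, unadjusted p = 0.00652). Cox7c, with overlapping classes, differed by 1.09 (unadjusted p = 0.0271). The median over the 13 genes was 0.35, against -0.23 for all genes tested, and it stayed above the median of all genes by 0.42 to 0.84 under all 27 settings tried, the one reported here included. Upper quartile scaling moved the median of all genes to -0.49 and that of complex IV to 0.00. The summed scaled FPKM of the list was 1332 to 1499 in the low-share libraries and 2135 to 3769 in the high-share libraries.

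The other complexes had lower medians over their nuclear genes, and their counts at an unadjusted p below 0.05 are to be read against 1.85% higher and 4.04% lower among all genes tested. Complex I, the NADH dehydrogenase, had a median of -0.18 over 37 genes, of which 2 were higher and 1 lower at an unadjusted p below 0.05. The higher ones were Ndufa12 (1.29, unadjusted p = 0.00682) and Ndufb9 (1.18, unadjusted p = 0.0315). The lower one was Ndufs8, at 12 to 19.7 scaled FPKM in the low and 0 to 9.20 in the high class (-2.49, unadjusted p = 0.006). Complex II and complex III had medians of -0.33 over 4 and -0.62 over 9 genes, with no member below an unadjusted p of 0.05. The median of complex III was -0.15 without knockdown 5 and 0.15 with relative depth as a covariate. ATP synthase had -0.10 over 15 genes, with Atp5e (1.26, unadjusted p = 0.017) and Atp5j2 (0.79, unadjusted p = 0.0397) higher. The 76 mitochondrial ribosomal proteins, which build the ribosomes that translate the MT mRNAs, had a median of -0.53 with 3 higher and 4 lower, and the 33 genes of mitochondrial DNA maintenance and expression had -0.45 with 1 in each direction. Protein import had -0.38 over 31 genes with 3 lower, and the TCA cycle -0.21 over 17 genes with 1 lower. Among 24 genes of mitochondrial transport and dynamics, 3 were higher without overlap (median -0.03), namely Kif5c, Kif1b and the fission factor Mff, which was at 10.7 to 34.7 in the low and 39.0 to 104 in the high class (1.21, unadjusted p = 0.0146).

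**Figure D3:**
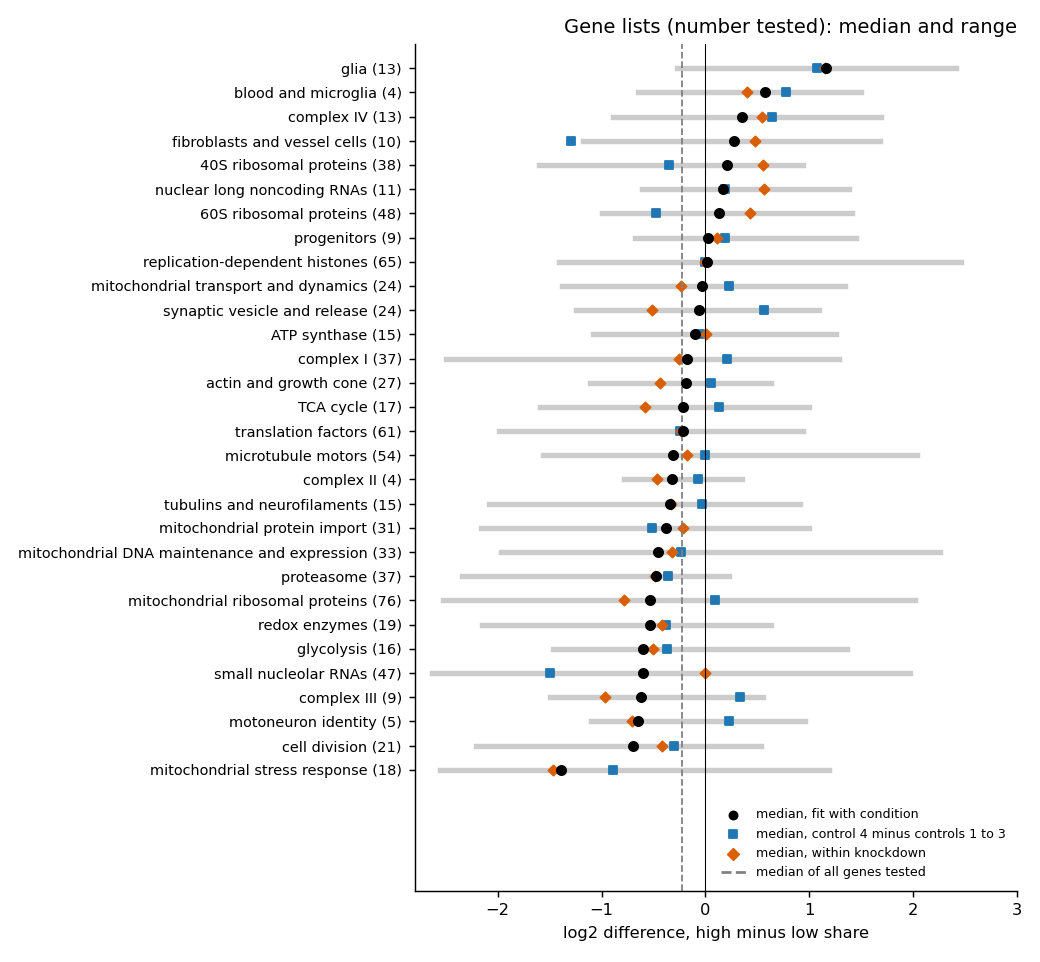
Log2 difference of high-share minus low-share axonal libraries (x axis) for 30 gene lists (y axis, number of genes tested in brackets), ordered by median. Black points are list medians in the fit with condition, grey bars the range over the genes of the list, blue squares the median of control 4 minus controls 1 to 3, orange diamonds the median within knockdown, and the dashed line the median of all genes at -0.23. Glia at 1.16, blood and microglia at 0.57 over only 4 genes, and complex IV at 0.35 lie to the right, and mitochondrial stress response at -1.39 lies farthest to the left.

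The list of mitochondrial stress response genes holds the transcription factor Atf4, its amino acid and serine synthesis targets, and mitochondrial chaperones and proteases. Of the 18 genes tested, 8 had an unadjusted p below 0.05 and were lower in the high class (4.04% of all genes tested were), none was higher, and none passed the adjusted threshold. The median was -1.39, the lowest of all 30 lists, with -0.89 for control 4 against controls 1 to 3 and -1.46 within knockdown libraries. Asns, the asparagine synthetase, was at 45.7, 72.8 and 30.8 in controls 1 to 3 and 49.3 and 52.1 in knockdown 1 and 3, against 6.60 in control 4 and 22.4, 13.5, 0 and 19.4 in knockdown 2, 4, 5 and 6. No high-share library reached a low-share one (difference -2.56 ± 0.80, unadjusted p = 0.00609). Atf4 was at 67.3, 74.3, 73.9, 80.9 and 107 in the low-share and at 30.7, 33.4, 56.2, 7.21 and 31.2 in the high-share libraries, again without overlap (-1.59 ± 0.51, unadjusted p = 0.007).

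Slc7a11, the cystine and glutamate exchanger, was at 1.24 to 5.29 in the low and 0 to 0.48 in the high class. It was tested only because of its level in the low class, so that its place among the 8 is no support for them. Shmt2, the mitochondrial serine hydroxymethyltransferase (-2.19, unadjusted p = 0.0204), and Lonp1, the mitochondrial matrix protease (-1.51, unadjusted p = 0.0469), did not overlap either. Trib3, a pseudokinase (-2.39, unadjusted p = 0.012), Phgdh, the first enzyme of serine synthesis (-2.22, unadjusted p = 0.0213), and Chac1, which breaks down glutathione (-1.81, unadjusted p = 0.0359), overlapped between the classes. Not all members were placed low: Ddit3, a transcription factor of the same response, was at 1.18 (unadjusted p = 0.219) and Mthfd2, a mitochondrial folate enzyme, at -0.02 (unadjusted p = 0.979). The summed level of the list was 314 to 456 scaled FPKM in the low and 151 to 263 in the high class. In the somatodendritic libraries of the same numbers the median of the list was 0.06. Relative depth was lowest, at 0.103, in knockdown 5, where Asns is listed at 0 and the list summed to 160 scaled FPKM. In knockdown 6 relative depth was 0.704 and the list summed to 173. Without knockdown 5 the list's median was -1.13 against -0.11 for all genes, and with relative depth as a covariate it was -0.89 against 0.01. The part of depth beyond these values was not tested.

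**Figure D4:**
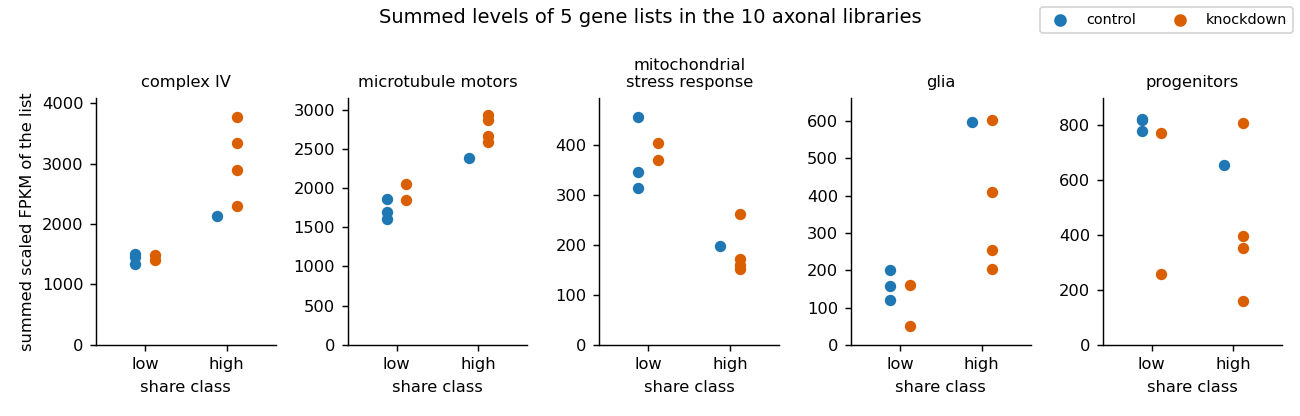
Summed scaled FPKM (y axis, starting at 0) of the genes of 5 lists in the 10 axonal libraries by share class (x axis). Each point is 1 library, blue for control and orange for knockdown. Complex IV, microtubule motors, mitochondrial stress response and glia do not overlap between the classes, while progenitor markers do, at 260 to 824 in the low and 161 to 810 in the high class. Without Kif1a, Kif1b and Kif5c the motor sum overlaps, as does the glial sum without Fabp7 and Slc1a3.

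Among the protein-coding genes that were lower without overlap, those with the smallest p had levels at or near 0 in the high class. Nelfe, a subunit of the factor that pauses RNA polymerase II, was at 63.2, 55.3 and 12.7 in controls 1 to 3 and 26.3 and 39.4 in knockdown 1 and 3. In the high class it is listed at 0 in control 4, knockdown 4 and knockdown 5, and was at 10.6 in knockdown 2 and 2.78 in knockdown 6 (-4.24 ± 0.81, limma, adjusted p = 0.101). Ccdc53, a subunit of the WASH complex on endosomes, was at 6.36 to 26.9 in the low class and listed at 0 in all high-share libraries but knockdown 6, at 4.65. Slc7a3, a transporter of cationic amino acids, was at 26, 17.6, 1.21, 5.06 and 35.5 in the low class and listed at 0 in all 5 high-share libraries. Snrpg, an Sm protein of the spliceosome, was at 8.71 to 27.1 in the low and 0 to 4.44 in the high class (-2.83 ± 0.68, limma, adjusted p = 0.373), and Nagk, the N-acetylglucosamine kinase, at 10.2 to 18.9 and 0 to 7.75 (-2.89 ± 0.70, limma, adjusted p = 0.381). Nelfe, Snrpg and Nagk did not pass the adjusted threshold. The pseudogenes Gm7846, at 5.63 to 14.7 in the low class, and Rpl36-ps2, at 1.32 to 26.4, were likewise listed at 0 in all 5 high-share libraries. Slc7a3, Ccdc53 and these 2 pseudogenes reached the mean of 1 FPKM needed for testing through the low class alone. This fixes their direction, and no test is given for them. Gm17709, another pseudogene, was at 4.88 to 21.2 and 0 to 1.66 (limma, adjusted p = 0.262), and Gm14303 was the pseudogene on the other side, at 166 to 326 in the low and 423 to 895 in the high class (1.24 ± 0.30, limma, adjusted p = 0.38). An FPKM of 0 in a library of low depth says that no fragment was assigned, not that the RNA is absent.

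The actin cytoskeleton fills the growth cone, and its list was placed near the median of all genes, at -0.19 against -0.23, while single abundant members lay lower. Fscn1, the bundling protein fascin, was at 207, 208, 152, 345 and 175 in the low-share and at 123, 126, 71.0, 76.7 and 106 in the high-share libraries (-1.12 ± 0.33, unadjusted p = 0.00479). Actb, β-actin, whose mRNA is carried into growth cones, was at 1660 to 4684 and 1269 to 1941, with knockdown 3 of the low class inside the range of the high class (-0.84 ± 0.25, unadjusted p = 0.00452). Coro1c, a coronin that binds actin filaments and is outside the list, was at 92.8 to 145 and 39.9 to 65.7 without overlap (-0.99 ± 0.31, unadjusted p = 0.0064). Actg1, γ-actin, was at 284 to 592 and 213 to 277 without overlap (-0.71, unadjusted p = 0.0139). Of the 27 genes of the actin and growth cone list, Fscn1, Actb and Actg1 had an unadjusted p below 0.05, all lower (4.04% of all genes tested were), and none passed the adjusted threshold. Gap43, a growth cone membrane protein, differed by -0.02 (unadjusted p = 0.97).

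For the remaining lists the counts of genes at an unadjusted p below 0.05 are small and stand beside 1.85% higher and 4.04% lower among all genes tested. The 48 proteins of the large and the 38 of the small cytosolic ribosomal subunit had medians of 0.13 and 0.21 with 3 and 2 higher and none lower. Upper quartile scaling turned both medians to -0.23 and -0.15, and within controls both were below 0, so no direction is given for them. Tubulins and neurofilaments had a median of -0.34 over 15 genes with 1 lower, synaptic vesicle and release genes -0.06 over 24 with none in either direction, glycolysis -0.60 over 16 with 1 in each direction, and proteasome subunits -0.47 over 37 with 1 lower. Redox enzymes had -0.54 over 19 genes with 2 lower, translation factors -0.22 over 61 with 1 lower, and replication-dependent histones 0.01 over 65 with 2 higher. Nuclear long noncoding RNAs, which serve as markers of nuclear RNA, had 0.17 over 11 with 1 higher, and their summed level overlapped at 833 to 2244 in the low and 983 to 2702 scaled FPKM in the high class. Their median was -0.26 without knockdown 1 and -0.18 with upper quartile scaling. Small nucleolar RNAs had -0.60 over 47 with 3 higher and 1 lower, at -1.50 in control 4 against controls 1 to 3 and at 0 within knockdown libraries. Of 13 motoneuron identity genes only 5 were high enough to be tested, with a median of -0.65 and none below an unadjusted p of 0.05, and their summed level was 33.9 to 74.5 in the low and 22.4 to 57.4 scaled FPKM in the high class.

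Markers of other cells that the cultures could hold were listed beside these results. Of the 13 glial markers tested 12 had a difference above 0 (36.8% of all genes tested had), 4 of them were higher at an unadjusted p below 0.05 (1.85% of all genes tested were), and the median was 1.16. Their summed level was 51.5 to 200 scaled FPKM in the low and 203 to 603 in the high class, so that the highest low-share and the lowest high-share library nearly met. The members with the smallest p were Fabp7, the brain fatty acid-binding protein, at 46.9, 45.5, 74.1, 38.0 and 3.07 in the low-share and 290, 110, 30.1, 46.4 and 122 in the high-share libraries (2.41 ± 0.62, unadjusted p = 0.00149), and Slc1a3, a glial glutamate transporter, at 6.22 to 70.3 and 26.7 to 374 (2.39, unadjusted p = 0.0108). Both overlapped between the classes. Gfap, the astrocyte intermediate filament (1.80, unadjusted p = 0.0461), was listed at 0 in 3 low-share libraries and at 2.35 to 18.4 in the high class. Gfap also overlapped between the classes. Aqp4, the astrocyte water channel, was at 0 to 1.14 and 1.74 to 8.31, and it was tested only because of its level in the high class, so that its place among the 4 is no support for them. Without Fabp7 and Slc1a3 the sum was 37.1 to 85.0 and 61.3 to 116, with overlap. Progenitor, fibroblast, cell division and blood markers overlapped between the classes, with medians of 0.02 over 9, 0.27 over 10, -0.70 over 21 and 0.57 over 4 genes. Over all 10 axonal against all 10 somatodendritic libraries, without regard to the share, the median log2 difference was 1.67 for the fibroblast and vessel markers, 1.17 for cell division, 0.51 for progenitors and -0.99 for glia, against 0.02 for all genes, and the fibroblast sum reached 2578 scaled FPKM in knockdown 1 of the low class. The part of glial RNA in the nuclear differences was not tested.

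Depth was also lower in the high class. Relative depth, read from the width of the authors' confidence bounds, was 0.394 ± 0.230 (SD, n = 5) in the high and 0.668 ± 0.0940 (SD, n = 5) in the low class (two-sided exact permutation test, p = 0.0476, 0.0794 adjusted over 5 measures). The number of nuclear genes above 0 was 7617 to 13641 in the high and 13027 to 15032 in the low class (exact permutation test, p = 0.0317, adjusted 0.0794). The share of nuclear FPKM in the top 100 genes was 55.5% in the high and 62.5% in the low class (exact permutation test, p = 0.302, adjusted 0.377), and the scaling factor averaged 1.0 and 1.05 (exact permutation test, p = 0.746). These tests took no account of condition. The scaling factor was 0.987 to 1.08 in high-share knockdown libraries, 1.37 and 1.48 in knockdown 1 and 3, and 0.758 to 0.841 in controls. The top 100 share was 65.4% to 72.5% in controls and 47.4% to 55.8% in knockdown libraries. Correlation of each axonal library with the mean somatodendritic profile over 8449 genes was 0.603 to 0.839 in the low and 0.466 to 0.721 in the high class, a description across genes in which the ranges overlapped. With relative depth as a covariate, in which none was called, Apc differed by 2.22, Kif1a by 1.90, Ttc3 by 1.80 and Rn7s1 by 1.49 (limma, adjusted p = 0.34 for each), and the median of all genes was 0.01. Absolute depth is unknown, since FPKM carry no counts. Zeros were frequent among the genes that were lower without overlap, as 112 of the 160 (70%) had at least 1 high-share library at 0, against 58.4% of all genes tested. Among the 562 genes lower at an unadjusted p below 0.05 it was 471 (83.8%). Choosing genes that are lower in the high class favours zeros there. Of the 97 that were higher none did, which their selection demands, and 15 had a low-share library at 0.

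The 97 higher genes are described here by further features, of which the mean level is partly fixed by their choice, since a gene above every low-share library cannot be at 0 in a high-share one. Their longest annotated transcripts had a median length of 4893 bases, against 2691 for the 160 lower genes and 3187 for all genes tested. Their median mean level was 24.9 FPKM, against 7.68 for the lower and 7.0 for all genes. Of the 97, 82 were protein-coding, against 146 of the 160 lower genes and 12064 of 13926 genes tested. The mean over all 10 axonal libraries was above the mean over all 10 somatodendritic libraries for 77 of the 97 (79.4%), against 80 of the 160 lower genes (50%) and 7161 of 13926 genes tested (51.4%). As the 5 high-share libraries are part of the axonal mean, genes chosen to be high in them lean toward the axon by that choice. Kif1a, Apc, Ttc3 and Ppfia3 are long transcripts, while the 7SL genes have 300 bases or fewer.

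Condition and share class were not equally spread, with 4 of 6 knockdown but 1 of 4 control libraries in the high class. Beside the share class, 32 genes passed an adjusted p of 0.05 between knockdown and control (limma), 1 higher and 31 lower in knockdown, and without the class term 52 did. This direction depended on the scaling: with nuclear FPKM rescaled to a fixed sum 44 passed, 19 higher and 25 lower, and of the genes at an unadjusted p below 0.05 86.8% were higher against 31.1%. That scaling moved the median of all genes from -0.07 to 0.50. No gene passed for a share effect that differed between the conditions (limma interaction, 0 at an adjusted and 488 at an unadjusted p below 0.05). That comparison rests on control 4 as the 1 high-share control, which is assumed to vary like the other groups, and with a pseudocount of 5 it called 28 genes, all lower. For Rn7s1 the unadjusted p of that interaction was 0.011. Within knockdown alone, with 4 against 2 libraries, 115 genes passed (limma), 5 higher and 110 lower, and 109 of these 110 are listed at 0 in all 4 high-share knockdown libraries. Such genes have no spread in that arm and were tested because of their level elsewhere, so these calls are a description only. Tardbp, which encodes Tdp-43, was at 40.7, 24.3, 42.6 and 15.9 in axonal controls 1 to 4 and at 24.2, 1.23, 3.35, 12.1, 13.1 and 11.3 in knockdown 1 to 6. Knockdown 1 was within the range of the controls, and control 4 was the lowest control. Tardbp differed by -0.59 ± 0.69 with the share class (limma, adjusted p = 0.96) and by -1.47 with condition beside it (limma, adjusted p = 0.924).

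The somatodendritic libraries of the same replicate numbers did not separate in this way. Their mitochondrial share was 11.9% ± 0.928 (SD, n = 5) for numbers with a high and 12.6% ± 1.72 (SD, n = 5) for numbers with a low axonal share (two-sided exact permutation test, p = 0.397). Of 13734 nuclear genes tested, none passed an adjusted p of 0.05 (limma) and 386 (2.81%) had an unadjusted p below 0.05. Of the 97 genes higher in high-share axonal libraries 92 were tested there and 3 were below an unadjusted p of 0.05, and of the 160 lower genes it was 2 of 148. On the somatodendritic side Apc differed by 0.35 ± 0.20 (unadjusted p = 0.114), Kif1a by -0.19 ± 0.12 (unadjusted p = 0.142), Ttc3 by -0.18 ± 0.19 (unadjusted p = 0.353) and Rn7s1 by 0.26 ± 0.24 (unadjusted p = 0.298). The difference between the compartments was not tested.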

How the data were processed

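Each library's FPKM per gene, with 95% confidence bounds, were deposited by the authors; the submitters' processing notes name FastQC 0.10.1, Cufflinks 2.2.1 and GRCm38. Fragment counts are not given in the sources used here, so depth was compared only as relative depth, from the width of the confidence bounds of 667 genes. Values of at most 0.001 FPKM were counted as 0 and were otherwise left unchanged. Nuclear FPKM were divided by median-of-ratios factors over genes of at least 1 FPKM in every library of a compartment (5097 axonal genes), and the 13926 genes whose axonal mean reached 1 FPKM were compared as log2(scaled FPKM + 1) in limma 3.58.1 (R 4.3.3; trended empirical Bayes, condition and share class as terms, Benjamini-Hochberg adjustment). A fold on this scale understates the change of low genes. Single values were compared by exact permutation over libraries in Python 3.11.15 (numpy 2.4.6, pandas 2.3.3, matplotlib 3.10.9). Similarity to MT genes was found with BLAST 2.17.0 on GENCODE M21 transcripts. The fit was tested on simulated data. Tables of 39174 genes were read.

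Classes, gene lists and tests were chosen with earlier results of these data known. Genes were named by a rule: non-overlapping genes of at least 5 FPKM that passed the test, filled to 5 protein-coding genes a direction by the smallest p, 5 others, and 2 members of each list with the smallest p. Further genes were named after their values were seen. Alternatives were other scalings, pseudocounts, filters and model terms, and leaving out each library.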

Additional observations from a re-analysis of the deposited data

Results flagged for a closer look

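Among 56 groups of 5 values checked, 7 held a library whose gap to its nearest neighbour took up an unusually large part of the group's range by Dixon's criterion, which chance alone gives in about 1 of 20 groups. On the log2(scaled FPKM + 1) scale, Apc was highest at 6.25 in control 3 of the low class, and Stau2 was highest at 6.77 in control 1 of the low class. In the high class Ccdc53 was highest at 2.50 in knockdown 6 and Nagk at 3.13 in control 4, and for each the other high-share libraries are listed at 0. Gm14303, a pseudogene, was lowest at 7.38 in knockdown 3 of the low class. Tardbp was lowest at 1.16 in knockdown 2 among the high-share and at 2.12 in knockdown 3 among the low-share libraries.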

How the results depend on the processing

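Against the 8 nuclear genes called between the share classes, there were 4 calls with quantile normalization, 14 with the share as a continuous covariate, 15 with no condition term, 23 with array weights (19 higher, 4 lower) and 5 without genes that share sequence with chromosome MT. There were 0 with upper quartile scaling, a pseudocount of 0.1, no filter on low values or relative depth as a covariate. Among alternatives chosen after seeing the data, the knockdown libraries alone gave 115 calls and the libraries of a relative depth of at least 0.3, which leaves out knockdown 5, gave 0. Leaving out 1 axonal library gave 0 to 7. Genes at an unadjusted p below 0.05 numbered 820, against 476 with a mean of at least 5 FPKM, 1361 with no condition term and 545 to 991 with 1 library left out. Of these, 31.5% were higher, against 9.01% with upper quartile scaling, 43.1% with a mean of at least 5 FPKM and 50.5% with relative depth as a covariate. Condition called 32 genes beside the class, 52 without it and 20 to 50 with 1 library left out. The interaction called 0 genes, and 28 with a pseudocount of 5. In the somatodendritic libraries the class called 0, and 0 to 1 with 1 library left out (Snord89 without control 4). The knockdown minus control difference of the somatodendritic share, -0.257 points, ranged from -0.82 to 0.154 with 1 library left out, above 0 without control 2 (0.154), knockdown 3 (0.0788) or knockdown 4 (0.0305). Among named genes, 6 that were not called changed sign: Rpl41 (-0.071) with quantile normalization, Uqcrc1 (0.15), Pdgfrb (-0.19), Unc13a (0.039) and Hba-a2 (-0.18) with relative depth as a covariate, and Ngfr (-0.75) in the knockdown libraries alone. Except where the construction leaves fewer libraries or genes, the cause was not tested. With the replicate number as a block there were 6 calls and 725 genes at an unadjusted p below 0.05 (block correlation 0.137). Deviations of axonal control and knockdown libraries of the same number correlated at -0.01 to 0.05. The paper states that both conditions were processed in parallel for RNA-seq. These correlations cannot show whether libraries of the same number belong together, and no pairing is read from the number. Low depth limits what the zeros of the high class can show.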
